A study of Mus musculus with 6 samples.

Results

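The Hox genes are the 39 protein-coding genes of the mouse genome (GRCm38) whose symbols are Hoxa, Hoxb, Hoxc or Hoxd followed by a number. They were taken from a gene table of 21631 protein-coding genes, and each was scored for a peak summit of open chromatin within 1 kb of either annotated end in each of 6 thymus libraries. All regions of open chromatin from 50 kb before to 50 kb after each of the 4 clusters were also collected, which gave 49 of the 73702 regions detected in the series. The study compared open chromatin, by ATAC-seq, in the thymus of p53 AD/- mice and of p53 -/- mice. AD is a p53 allele that the series describes as dimeric, carried over a null allele, and the p53 -/- mice, called null below, carry no functional p53 allele. Each genotype had 3 libraries. All mice had germline p53 alterations, a mixed background recorded as 50% BALB/C and 50% C57BL6, and an age of 4 weeks. The libraries came from whole thymus, and no mice with 2 intact p53 alleles were among them. The labels do not state that the 6 libraries came from different mice, so the spread between them may be partly technical.

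Hox genes encode homeodomain transcription factors and lie in clusters in which gene order follows the order of expression along the body axis, from the low-numbered anterior genes to the high-numbered posterior ones. Genes with the same number in different clusters are paralogues that descend from 1 ancestral gene. Outside embryonic patterning, genes of the Hoxa and Hoxb clusters are expressed in haematopoietic stem and progenitor cells and in the earliest thymocytes, and are turned down as those cells mature. Polycomb complexes keep silent Hox genes repressed, and MLL (Trithorax) complexes maintain the active ones. In the thymus most cells are thymocytes past that early stage. Thymic epithelium, which arises from a pharyngeal pouch whose development needs Hoxa3, and connective tissue make up a small share.

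Summits per library numbered 54618, 60160 and 44496 for AD/- replicates 1, 2 and 3, and 54152, 55653 and 58019 for null replicates 1, 2 and 3. AD/- library 3 was the shortest list. Read depth is unknown, and list length stands in for it here, although length did not follow the scores of the summits. The median score was 77.3 in null library 2, whose list was of middling length, and 24.6 to 36.2 in the other libraries. At Trp53, the altered gene, 6 of 6 libraries had a gene-end summit, which does not check the genotype labels. The labelled tissue was checked against marker genes: 16 of 16 thymocyte markers had a gene-end summit in every library. Of 15 markers of thymic epithelium, 5 had one in all 6 libraries and Krt5, Krt8, Krt14, Pax1, Pax9 and Eya1 had none in any. Of 5 B cell markers only Ebf1, and of 6 myeloid markers only Cebpa, had one in all 6.

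Sequence at 3 Hox start sites shows how the summits sit on the DNA. The promoter windows below are RefSeq sequence of GRCm38.p6, 300 bases long and beginning 250 bases before the start site, which is position 0 in the offsets that follow. Hoxa13, which patterns the digits and the hindgut and urogenital tract, is on the minus strand at chr6:52260831-52261130 and was the only one of 24 Hox windows with a summit in all 6 libraries. Its capitals run from −68 to −1, the span of the 6 libraries' summits plus 10 bases on each side. Hoxd13, its paralogue in the Hoxd cluster, is on the plus strand at chr2:74667975-74668274 and had a summit in the window in AD/- library 2 alone, where the capitals run from +4 to +24 around it. Hoxa9, which drives expansion of haematopoietic progenitors and is a central gene in leukaemias with MLL rearrangements, is on the minus strand at chr6:52227321-52227620 and had none, so it has no capitals.
Hoxa13: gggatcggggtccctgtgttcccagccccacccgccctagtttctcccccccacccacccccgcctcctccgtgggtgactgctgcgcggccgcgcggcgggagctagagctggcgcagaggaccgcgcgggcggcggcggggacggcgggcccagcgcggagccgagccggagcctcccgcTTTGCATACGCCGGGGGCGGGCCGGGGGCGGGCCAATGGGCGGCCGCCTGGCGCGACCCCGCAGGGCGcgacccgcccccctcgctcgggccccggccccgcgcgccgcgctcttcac
Hoxd13: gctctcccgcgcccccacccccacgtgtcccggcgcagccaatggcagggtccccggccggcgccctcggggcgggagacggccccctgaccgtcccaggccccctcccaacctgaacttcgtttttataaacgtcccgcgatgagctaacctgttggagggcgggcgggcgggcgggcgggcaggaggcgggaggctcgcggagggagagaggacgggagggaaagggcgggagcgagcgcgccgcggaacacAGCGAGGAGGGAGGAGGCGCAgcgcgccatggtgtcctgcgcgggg
Hoxa9: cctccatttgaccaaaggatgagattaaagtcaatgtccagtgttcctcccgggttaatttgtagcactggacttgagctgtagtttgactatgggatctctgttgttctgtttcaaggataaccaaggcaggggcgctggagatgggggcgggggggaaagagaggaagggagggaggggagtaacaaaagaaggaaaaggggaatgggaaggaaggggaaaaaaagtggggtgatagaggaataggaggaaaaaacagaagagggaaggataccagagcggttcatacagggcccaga

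The Hoxa13 window held 45 CpG dinucleotides and 81% G and C, and 97.5% of the 21045 windows of protein-coding genes had fewer CpG. Its capitals enclose 3 copies of the GC box GGGCGG on the gene's strand, from −54, −43 and −31, and 1 CCAAT box from −36 to −32. The Hoxd13 window held 37 CpG and the Hoxa9 window held 4. Across the 24 windows, which cover 22 of the 39 genes, the median was 14.5 CpG, close to 13 over all windows, while windows with a summit in all 6 libraries had a median of 24. A GC box, searched on both strands, was present in 10 of 24 Hox windows (41.7%) and in 46.7% of all windows. CCAAT was present in 15 (62.5%) against 38.5%, TATAAA in 4 (16.7%) against 12.7% and CACGTG in 5 (20.8%) against 7.91%. No motif contains another, and the last one reads the same on both strands. A match is a description of the letters, not a binding site. The offsets of the Hoxa13 summits from the start site were −58, −42 and −11 in the AD/- libraries and −41, −41 and −42 in the null libraries, so the genotypes overlapped. Of the other windows, Hoxd1 had a summit in null library 2 alone, 8 bases before the start, and 21 had none in any library. Over all protein-coding genes, 31.8% of windows held a summit in every library and 55.1% in none.

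**Figure D1:**
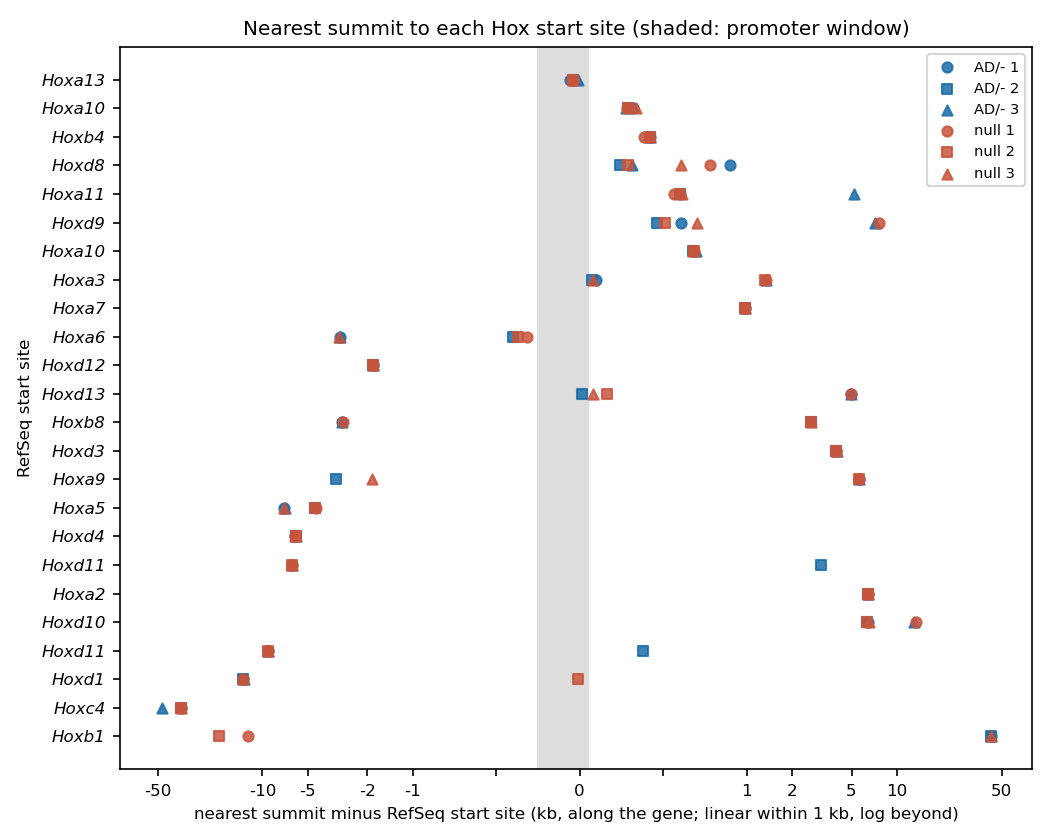
The horizontal axis gives the distance in kb from each of 24 RefSeq start sites of 22 Hox genes to the nearest summit, along the direction of the gene, linear within 1 kb and logarithmic beyond, with 1 point per library (AD/- blue, null red); the shaded band is the promoter window. Hoxa13 is the only row in which all 6 points fall in the band, and the Hoxb1 and Hoxc4 points lie more than 10 kb away.

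Genes of the Hox clusters fell into 3 sets by their summits. A summit within 1 kb of a gene end was present in all 6 libraries for 9 of the 39 Hox genes (23.1%): Hoxa4, Hoxa7, Hoxa10, Hoxa13, Hoxb4, Hoxb5, Hoxb8, Hoxc10 and Hoxd8. It was present in 1 to 5 libraries for another 9 (23.1%) and in no library for 21 (53.8%). Over all 21631 protein-coding genes these shares were 52.6%, 6.70% and 40.7%. These shares are set side by side as counts, without a test, and they depend on the distance: within 2 kb, 17 Hox genes were marked in all 6 libraries and 33.3% in none, beside 35.6% of all genes in none. Only the outer ends of each gene model count here, so a summit at a start site inside the model can be missed. In whole thymus, a summit missing because fewer cells have the region open and one missing because the region is less open per cell cannot be told apart.

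**Figure D2:**
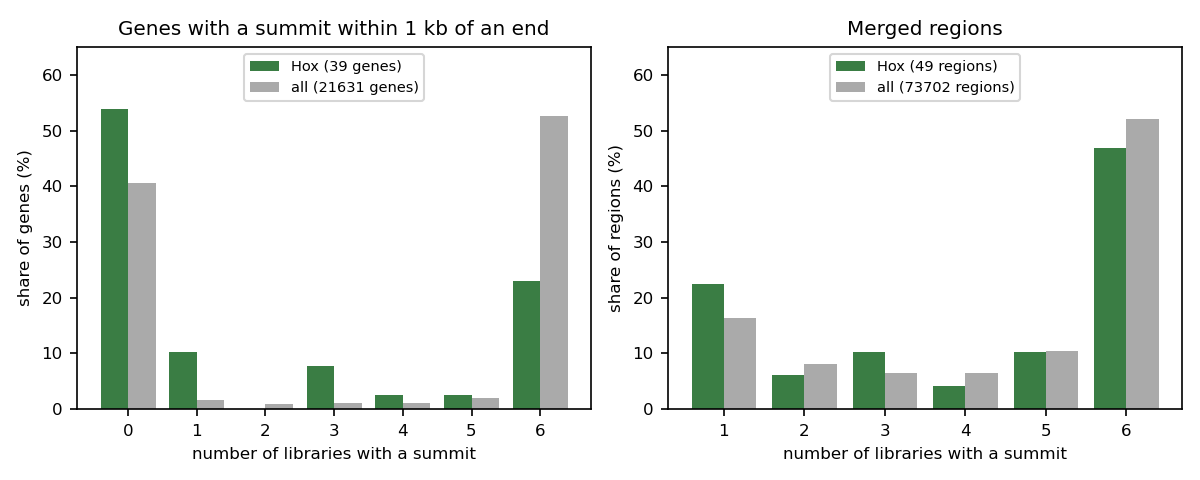
Bars give the share (%) of Hox genes and of all protein-coding genes (left), and of regions in the Hox windows and of all regions (right), by the number of libraries with a summit. The Hox genes are at 53.8% with no library and 23.1% with all 6, against 40.7% and 52.6% over all genes.

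By position along the clusters, none of the 8 anterior genes (groups 1 to 3) had a gene-end summit in all 6 libraries, against 6 of the 15 central genes (groups 4 to 8) and 3 of the 16 posterior genes (groups 9 to 13). In no library were 5 anterior, 7 central and 9 posterior genes marked. These counts by position depend on the limit of 1 kb. Genes marked in all 6 libraries only within 2 kb included anterior Hoxa3 and Hoxd3, central Hoxb6 and posterior Hoxa9, Hoxa11, Hoxd12 and Hoxd13. By cluster, the genes marked in all 6 libraries were 4 of 11 in Hoxa, 3 of 10 in Hoxb, 1 of 9 in Hoxc and 1 of 9 in Hoxd. The paralogue groups with 2 members marked in all 6 libraries were group 4 (Hoxa4 and Hoxb4), group 8 (Hoxb8 and Hoxd8) and group 10 (Hoxa10 and Hoxc10).

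**Figure D3:**
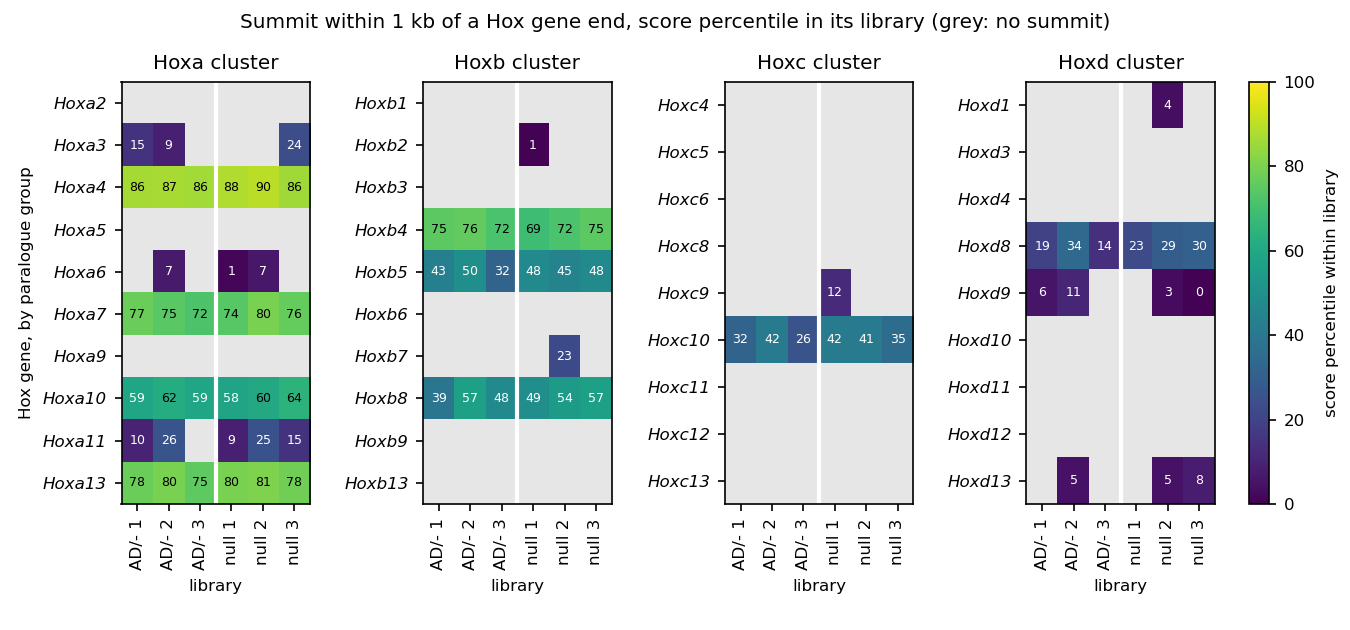
Each cell gives, for each Hox gene shown (rows, by cluster and paralogue group) and a library (columns), the percentile within that library of the best-scoring summit within 1 kb of a gene end, with grey for no summit; the white line separates AD/- from null. Hoxa4, Hoxa7 and Hoxa13 hold values above 70 in every library, and most rows of Hoxc are grey.

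The strengths below are percentiles, the rank of a summit's score among all summits of the same library, with 100 at the top. The lists differ in length, so a percentile places a summit within its own library and a difference in rank is not read as a change between genotypes. On this scale, regions shared by all libraries tend to rank lower in a shorter list, such as that of AD/- library 3. Hoxa4, which patterns the neck vertebrae, had the strongest gene-end summit of the Hox genes. Its percentiles were 86.5, 86.8 and 86.0 in AD/- libraries 1, 2 and 3 and 88.0, 89.6 and 85.8 in null libraries 1, 2 and 3, at 240 to 282 bp from the gene end. All 6 values were close and the genotypes overlapped. Hoxa7, a thoracic patterning gene also used by MLL-rearranged leukaemias, had 77.4, 74.6 and 72.1 in AD/- and 74.2, 79.8 and 76.5 in null. Its summit was at 989 to 991 bp from the start, inside the gene, and so only just within the limit of 1 kb. All 6 summits of Hoxa7 fell within 2 bp of each other.

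At Hoxa13 the percentiles were 77.7, 80.0 and 75.2 in AD/- and 79.7, 80.8 and 78.2 in null. Hoxa10, which acts in lumbar patterning, the uterus and blood progenitors, had lower values, with 58.8, 61.8 and 58.9 in AD/- and 58.2, 60.2 and 64.5 in null. The ranges of the genotypes overlapped at both genes. The Hoxa10 summit was 278 to 340 bp inside the gene from its outer start. Hoxa11, which acts in the forearm and the kidney and lies next to Hoxa10, had weaker summits at 10.1 and 26.1 in AD/- libraries 1 and 2 and 8.98, 25.3 and 14.5 in the null libraries. It had none within 1 kb in AD/- library 3.

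Hoxa3 and Hoxa6 were marked in 3 libraries each. Hoxa3, which is needed for the thymus to form, ranked at 14.6 in AD/- library 1, 8.73 in AD/- library 2 and 23.6 in null library 3. These summits lay 74 to 97 bp inside the outer end of a gene model that also spans Hoxa4, Hoxa5 and Hoxa6. Hoxa6 had 7.26 in AD/- library 2 and 1.33 and 6.56 in null libraries 1 and 2. Both genes were marked in each genotype and only with low-ranking summits. Hoxa2, which patterns the hindbrain and pharyngeal arches, Hoxa5, which acts in the lung, and Hoxa9 had no gene-end summit in any library. The nearest summits were 3990 to 4029 bp from Hoxa2, 4403 to 7178 bp from Hoxa5 and 1296 to 1341 bp from Hoxa9.

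In the Hoxb cluster the 3 genes marked in all 6 libraries were central ones. Hoxb4, which expands blood stem cells when overexpressed, had percentiles of 74.8, 75.8 and 71.8 in AD/- and 68.9, 71.7 and 74.9 in null. Hoxb5, used as a marker of long-term blood stem cells, had 43.3, 49.9 and 32.4 in AD/- and 48.0, 44.7 and 47.8 in null. AD/- library 3 was the lowest of the 6 at Hoxb5, and the genotypes overlapped at both genes. Hoxb8, which maintains myeloid progenitors when forced on, had 39.1, 57.0 and 47.6 in AD/- and 49.4, 54.5 and 56.7 in null. Its summits lay 413 to 474 bp outside the lower end of the gene model. The summits nearest to its RefSeq start site had offsets of −2978 to −2918 bp or 2697 to 2702 bp. Again the genotypes overlapped, and AD/- library 1 was the lowest. Hoxb7 had a summit at 997 bp in null library 2 with a percentile of 22.6. Summits of AD/- library 2 and null library 3 in the same region, with 19.1 and 15.0, fell just outside 1 kb, so the single library comes from the distance limit. Hoxb2, a hindbrain gene, had 1 summit at 0.651 in null library 1, near the bottom of its list. Hoxb1, Hoxb3, Hoxb6, Hoxb9 and Hoxb13 had none, and for Hoxb1 the nearest summit was 12526 to 39641 bp away.

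The Hoxc cluster was the least marked. Hoxc10, expressed in hind limb and lumbar motor neurons, had percentiles of 31.9, 41.6 and 25.9 in AD/- and 41.5, 41.5 and 35.3 in null, at 239 to 240 bp outside the gene. Its position was fixed to within 1 bp, and the 2 lowest values were AD/- libraries 3 and 1. Hoxc9, a thoracic patterning gene, had a summit in null library 1 alone, with a percentile of 12.4. Hoxc4, Hoxc5, Hoxc6, Hoxc8, Hoxc11, Hoxc12 and Hoxc13 had none, and Hoxc6 missed the limit by the least, with its nearest summit at 1083 bp. For Hoxc11, Hoxc12 and Hoxc13, the last of which is needed for hair, the nearest summit in each library was the one at Hoxc10, at least 9855, 27947 and 37742 bp away.

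In the Hoxd cluster Hoxd8 had percentiles of 19.4, 34.3 and 13.7 in AD/- and 22.8, 29.4 and 30.5 in null. It was the weakest of the 9 genes marked in all libraries and the least fixed in place, with summits from 241 to 900 bp inside the gene. Hoxd9 had 5.61 and 10.6 in AD/- libraries 1 and 2 and 3.10 and 0.476 in null libraries 2 and 3. Hoxd13 had 4.90 in AD/- library 2 and 4.71 and 7.66 in null libraries 2 and 3. These genes act in the limb, and each was marked in both genotypes. Hoxd1 had 3.88 in null library 2. Hoxd3, Hoxd4, Hoxd10, Hoxd11 and Hoxd12 had no gene-end summit in any library, and the nearest to Hoxd3 was at 1204 bp.

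The comparison the study was built on asks which regions are open in one genotype and not in the other. No Hox gene (0 of 39) had a gene-end summit in every AD/- library but in no null library, where 0.0185% of all protein-coding genes did. The count in the other direction, all 3 null and no AD/- library, was also 0 of 39, where the share over all genes was 0.0324%. At such shares, fewer than 1 call would fall in 39 genes, so a count of 0 says little about Hox genes. For a single gene the presence or absence of a summit cannot pass a test here, because Fisher's exact test with 3 against 3 reaches at best p = 0.10 (two-sided). Of the 9 genes marked in some libraries, Hoxb2, Hoxb7, Hoxc9 and Hoxd1 were marked only in null libraries, each in 1, and none only in AD/- libraries. Their summits ranked low, with percentiles of 0.651, 22.6, 12.4 and 3.88 in that order. At Hoxb7 a summit of AD/- library 2 in the same region fell just outside 1 kb. This split was not tested. Over all genes, 1.04% were marked in null libraries alone and 1.09% in AD/- libraries alone, in any number. The other 5 Hox genes were marked in both genotypes.

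The number of Hox genes marked was 12, 14 and 9 in AD/- libraries 1, 2 and 3 and 13, 15 and 13 in null libraries 1, 2 and 3. Over all genes the share marked was 56.4%, 57.2% and 53.8% in AD/- and 56.3%, 56.5% and 56.3% in null. The AD/- mean was 11.7 ± 2.52 and the null mean 13.7 ± 1.15 (SD, n = 3 each). The null mean was higher by less than the SD of the AD/- libraries and by more than the SD of the null libraries. AD/- library 3, with the shortest list, was the lowest, and without it the AD/- mean was 13. The difference, AD/- minus null, was −2 genes, −0.667 without AD/- library 3, −3.17 without AD/- library 2 and −0.333 with gene ends within 0.5 kb. Some lists of markers of other cells differed alongside. Gene-end summits were present for 7, 8 and 6 of 15 thymic epithelium markers in AD/- and 9, 9 and 8 in null, and for 6, 6 and 5 of 15 mesenchyme and endothelium markers in AD/- and 4, 5 and 4 in null. Of the latter list, Pdgfrb, Col1a1, Kdr and Sox17 were marked in all 6 libraries, Twist1 and Sox18 in some, and the other 9, among them Pdgfra, Pecam1 and Cdh5, in none. Other lists differed less. Markers of blood stem and early progenitor cells gave 8, 8 and 6 of 10 in AD/- and 8, 7 and 7 in null. Myeloid markers gave 2, 2 and 1 of 6 in AD/- and 2, 2 and 2 in null, and B cell markers 1 of 5 in every library. The part of any of these cells in the Hox counts was not tested.

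The clusters differed in how densely open regions lay between their ends. Inside the clusters there were 18 regions over 105.5 kb at Hoxa (chr6:52155367-52260880), 10 over 173.9 kb at Hoxb (chr11:96194316-96368254), 4 over 115.7 kb at Hoxc (chr15:102921131-103036856) and 8 over 96.9 kb at Hoxd (chr2:74668225-74765142). That is 17.1, 5.75, 3.46 and 8.25 regions per 100 kb, beside 2.89 per 100 kb over the chromosomes. Regions found in all 6 libraries came to 7.58, 2.87, 0.864 and 4.13 per 100 kb, beside 1.5. Hoxa was thus the densest and Hoxc, for regions shared by all libraries, was below the value for the chromosomes. The flanks of 50 kb held 9 further regions: 5 beside Hoxa, 1 beside Hoxb, none beside Hoxc and 3 beside Hoxd.

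**Figure D4:**
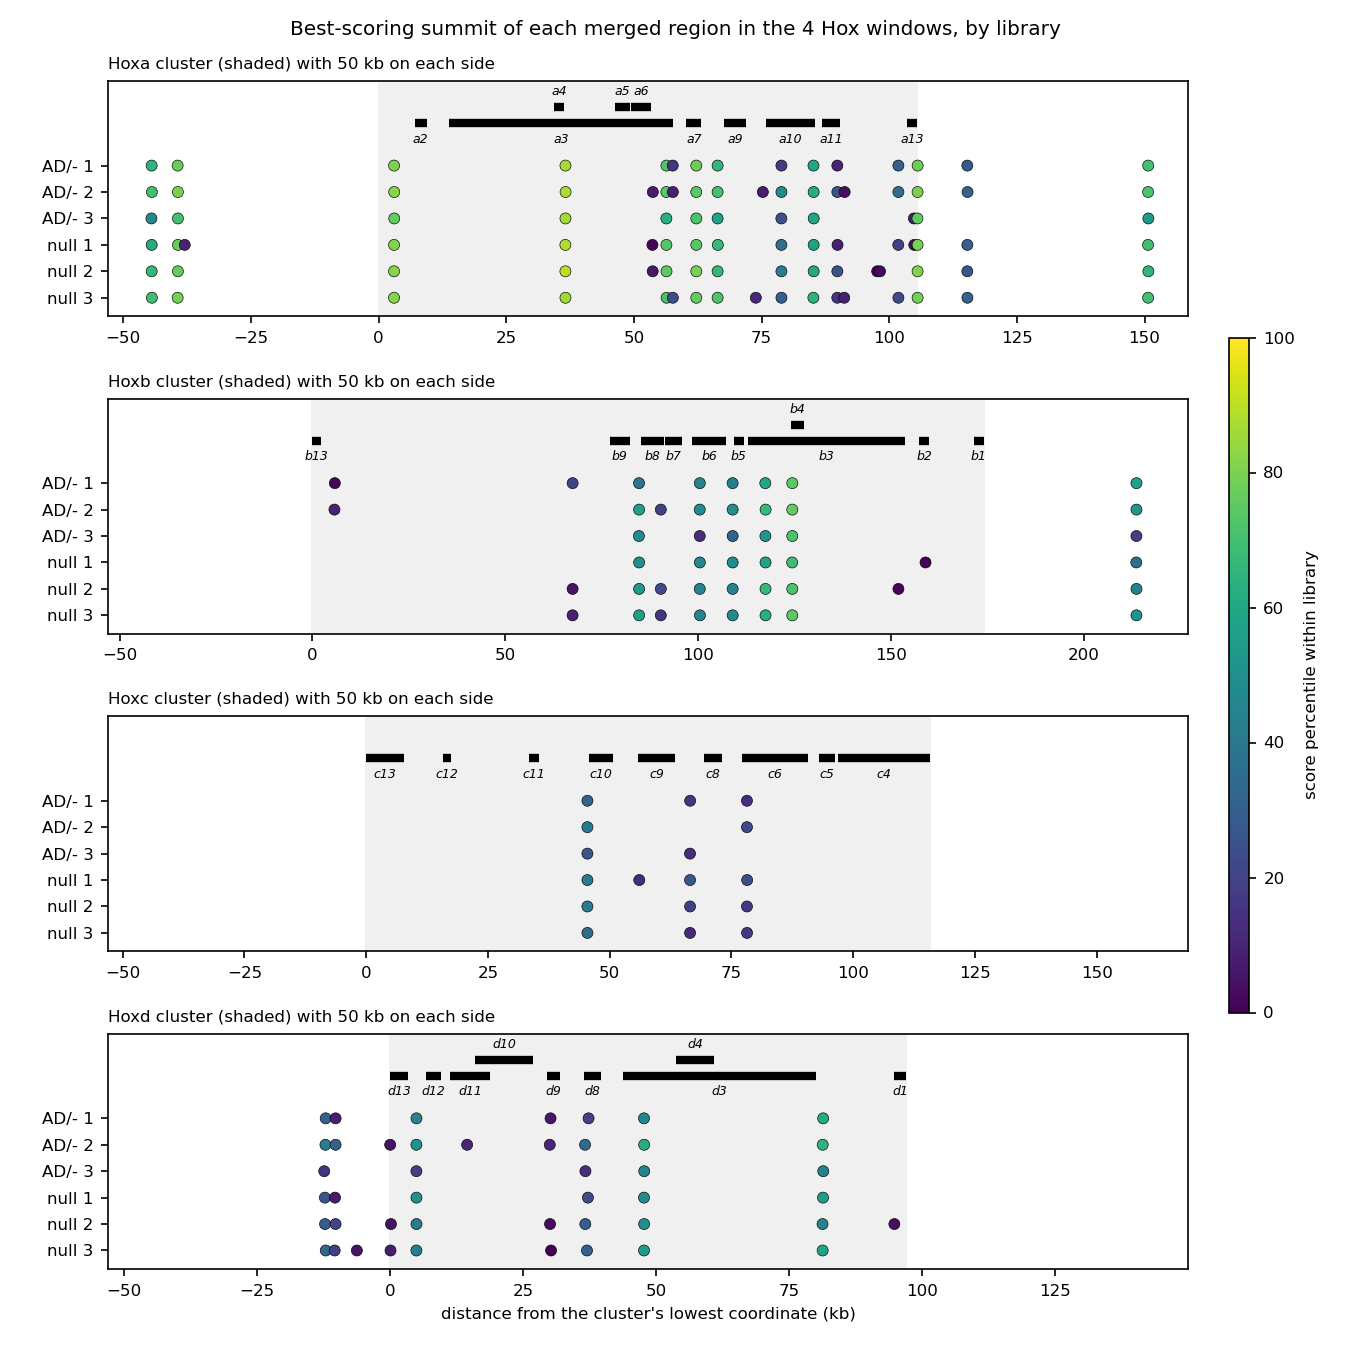
For each cluster (shaded) and its flanks, the horizontal axis gives the distance in kb from the lowest coordinate of the cluster, black bars the models of the Hox genes shown, and each point the best-scoring summit of a region in a library, coloured by its percentile. Hoxa shows columns of 6 bright points along its length, Hoxc a single full column at Hoxc10, and the posterior end of Hoxc and the anterior ends of Hoxb and Hoxc are empty or nearly so.

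The longest stretches without a region were in Hoxc: 95.2 kb with Hoxc11, Hoxc12 and Hoxc13, and 87.3 kb with Hoxc4 and Hoxc5, both reaching into the flanks. In Hoxb, a stretch of 55.4 kb held Hoxb13, one of 54.1 kb held Hoxb1, and one of 61.1 kb held no whole Hox gene. Stretches of 33.0 kb in Hoxa with Hoxa2 and 33.0 kb in Hoxd with Hoxd4 were the longest inside those clusters, and one of 16.5 kb held Hoxa5 and Hoxa6. An absent summit says only that no peak passed the authors' threshold in these libraries.

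Of the 49 regions, 23 (46.9%) had a summit in all 6 libraries, beside 52.1% over all regions, and 11 (22.4%) in a single library, beside 16.4%. Regions found in every library lay as often away from Hox gene ends as at them: inside the clusters, 9 were at a Hox gene end and 9 were farther than 1 kb from one. The median percentile of the 23 shared regions was 59.5, beside 64.5 over all shared regions. It was 73.3 at Hoxa, 50.5 at Hoxb, 43.7 at Hoxd and 38.4 at the single Hoxc region. Regions missing from at least 1 library were weak, with no percentile above 35.1, and those found in 1 library did not exceed 12.4. Within a shared region the summits of the 6 libraries spread over a median of 45 bp, beside 49 bp over all shared regions.

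Several shared regions lay between or inside Hox genes rather than at their ends. Hoxa region 7, between Hoxa6 and Hoxa7 at chr6:52211473-52212015, had 72.9, 74.3 and 63.5 in AD/- and 73.8, 75.4 and 71.1 in null. Hoxa region 10, between Hoxa7 and Hoxa9 at chr6:52221506-52222051, had 65.8, 70.5 and 57.4 in AD/- and 67.0, 66.5 and 72.3 in null. Both regions were lowest in AD/- library 3, with the other 5 libraries close together.

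Hoxa region 13, inside Hoxa10, was the most uneven of the Hoxa regions, with 17.6, 47.4 and 24.5 in AD/- and 35.9, 41.3 and 30.5 in null. The null values fell within the AD/- range. Summits of this region lay 681 to 699 bp downstream of an inner RefSeq start site of Hoxa10, so it is away only from the outer ends of the gene. Hoxb region 7, inside the long Hoxb3 model at chr11:96311440-96312016, had 59.6, 67.2 and 52.4 in AD/- and 59.1, 67.1 and 63.1 in null. Hoxd region 10, inside the non-coding RNA gene Haglr at chr2:74749225-74749863, had 61.2, 64.7 and 43.3 in AD/- and 55.2, 44.7 and 58.2 in null. Hoxd region 9 at chr2:74715684-74716226, at the end of the non-coding RNA gene Hoxd3os1, had 46.1, 62.2 and 44.5 in AD/- and 48.9, 50.0 and 55.0 in null. The genotypes overlapped at each of them. Hoxd region 5 at chr2:74672919-74673434, between Hoxd13 and Hoxd12, had 45.1, 50.7 and 18.7 in AD/- and 50.1, 41.5 and 42.3 in null, again with AD/- library 3 lowest.

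**Figure D5:**
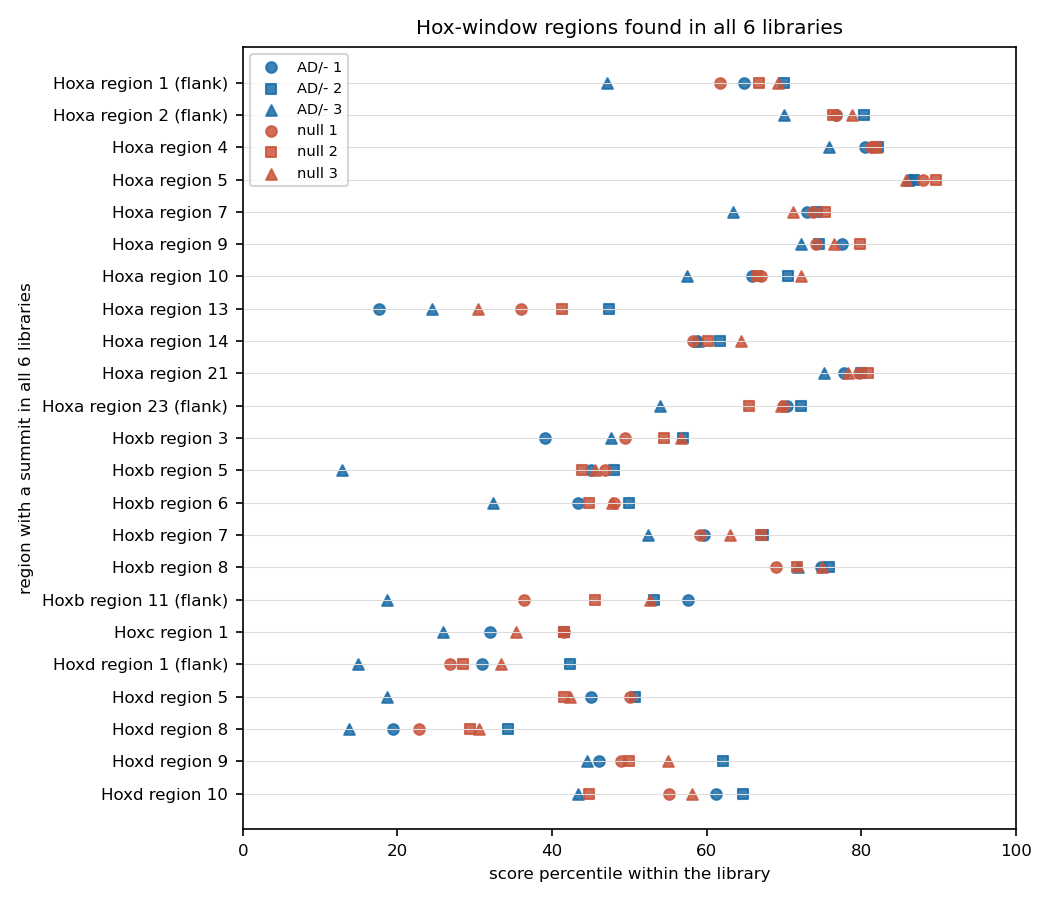
Points give the percentile within its library of the best-scoring summit of each of the 23 Hox-window regions found in all 6 libraries (AD/- blue, null red; symbols mark the replicate), ordered by cluster and position. The AD/- and null points are interspersed, and the blue triangle of AD/- library 3 is leftmost in 18 of the 23 rows.

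Across regions, no Hox-window region (0 of 49) had a summit in all 3 AD/- and no null library, where 0.179% of all regions did, and 0 of 49 had one in all 3 null and no AD/- library, where 0.418% did. These shares, too, would put fewer than 1 call among 49 regions. Regions seen in AD/- libraries alone numbered 3, of which Hoxb region 1, near Hoxb13, was in libraries 1 and 2 with percentiles of 1.38 and 9.19, and the other 2 were in library 2. Regions seen in null libraries alone numbered 9, each in 1 library: 3 in library 1, 4 in library 2 and 2 in library 3. Over all regions, 10% were seen in AD/- libraries alone and 10.3% in null libraries alone, and single-library regions numbered 6266 in AD/- and 5838 in null. The 9 against 3 split of the Hox windows was not tested. AD/- libraries 1, 2 and 3 held 33, 37 and 25 of the 49 regions and null libraries held 34, 37 and 37. The means were 31.7 ± 6.11 and 36 ± 1.73 (SD, n = 3 each), and 35 in AD/- without library 3. That library had the lowest percentile in 18 of the 23 shared Hox regions, beside 71.9% of shared regions overall. It was the missing one in 4 of the 5 Hox regions found in exactly 5 libraries, beside 73.2% of all such regions. The same library thus had the lowest ranks outside the Hox windows as well. Its list is the shortest, so lower ranks of shared regions there are not read as weaker signal.

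The clusters also carry microRNA genes, among them some whose products target Hox transcripts. Mature sequences of the Mir10 and Mir196 genes, from RefSeq, are shown with the seed, bases 2 to 8, in capitals. They form 2 families by shared seed. Mir615 in Hoxc has other seeds and is not shown. Mir10a in Hoxb and Mir10b in Hoxd share the seed ACCCUGU and differ by U12A, counted from the 5′ end, and the Mir196 genes share AGGUAGU, with A12C between 196a and 196b.
mmu-miR-10a-5p: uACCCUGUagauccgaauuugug
mmu-miR-10b-5p: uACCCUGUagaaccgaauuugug
mmu-miR-196a-5p: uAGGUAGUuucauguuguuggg
mmu-miR-196b-5p: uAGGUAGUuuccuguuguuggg

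Of 6 microRNA genes in the windows, 5 had no summit within 1 kb in any library. The nearest summits were 1379 to 1413 bp from Mir10a, 10094 to 10136 bp from Mir10b, 3413 to 13722 bp from Mir196a-1, 3770 to 6794 bp from Mir196a-2 and 15561 to 27290 bp from Mir615. The nearest summit to Mir10a was the one at Hoxb4. Mir196b, between Hoxa9 and Hoxa10, had a summit within 1 kb in AD/- library 2, at 449 bp, and in null library 3, at 843 bp, so 1 library of each genotype was marked. Of 29 long non-coding RNA genes in the windows, 3 had a gene-end summit in all 6 libraries, among them Hoxd3os1, and 20 had none. Over the 12697 such genes of the table, 21.2% were marked in all 6 and 70.2% in none. Hoxa11os, antisense to Hoxa11, was marked in the same 5 libraries as Hoxa11, whose end it overlaps. Hotair in Hoxc and Hottip beside Hoxa13, both known for recruiting chromatin regulators to Hox genes in human cells, had none. Of the neighbouring protein-coding genes with an end in the windows, Ttll6 had none and Evx2, a homeobox gene beside Hoxd13, had one in null library 3.

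Genes that work with Hox proteins or on Hox chromatin are given as counts, to be read beside the 52.6% of all genes marked in all 6 libraries. A gene marked in none had no summit within 1 kb of the outer ends of its model. Start sites inside the model were not searched for these counts, so such a gene may still have an open start site. Of the 9 TALE homeodomain cofactors that bind DNA with Hox proteins, 6 had a gene-end summit in all 6 libraries, among them Pbx3 and Pknox1. Meis1, the partner of Hoxa9 in leukaemia, had one in 5 and was missing from AD/- library 3. Meis2 had one in 4, missing from AD/- libraries 1 and 3, and Meis3 had none. Of 25 Polycomb genes 23 were marked in all 6, including Ezh2, the methyltransferase that deposits the repressive mark. The exceptions were Phf19, marked in AD/- library 3 and null libraries 1 and 2, and Cbx7, marked in none. Of 13 Trithorax and MLL genes 9 were marked in all 6, among them Kmt2a, which encodes MLL1, and Men1, which encodes its partner menin. Dpy30 and Kdm6a were marked in none. Of 9 genes of chromatin loops, 5 including Ctcf were marked in all 6, and Rad21, Stag1 and Wapl in none. None of the 8 ParaHox and Evx genes, the nearest homeobox relatives, was marked in all 6 and 6 were marked in none. Of 10 markers of blood stem and early progenitor cells, 5 were marked in all 6 and Cd34 and Mecom in none, with 6 to 8 marked per library. No gene of these lists differed between the genotypes in all 3 libraries of each. Over all protein-coding genes, 0.0185% were marked in all AD/- and no null libraries and 0.0324% the other way. At such shares this says little about the lists.

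Of the alternatives run, only the distance that counts as a gene end moved the sets of genes marked in all or no libraries by more than 1.5 times. Within 0.5 kb, 7 Hox genes (17.9%) were marked in all 6 libraries, beside 46.4% of all genes, and Hoxa7 and Hoxd8 were lost. Within 2 kb the count rose to 17 (43.6%), beside 57.6%, and 13 (33.3%) were marked in none, beside 35.6%. The genes gained included Hoxa3, Hoxa9, Hoxa11, Hoxb6, Hoxd3, Hoxd12 and Hoxd13.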

How the data were processed

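ATAC-seq cuts accessible DNA with a transposase and sequences the fragment ends. Each thymus library has its own list of summits, deposited by the authors, so peaks were called per sample. In these deposited lists each summit has a score in the form of a −log10 q-value: the lowest score of a list was 1.30 to 1.39, where a q-value of 0.05 would be 1.30. Per the submitters' processing notes, which give no roles, the build was GRCm38 and the tools were MACS2 2.1.2, Picard 2.9.0, Bowtie2 2.3.4.2 and Trim Galore 0.4.5. Shifting of reads for the transposase cut and removal of duplicates are not given in the sources used here. Libraries were grouped by the genotype label and numbered in order of deposition.

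From these lists, summits on chromosomes 1 to 19 and X were ranked within each library (ties shared) and matched to both annotated ends of the genes of a RefSeq table on GRCm38. Summits were extended by 250 bp per side and merged over libraries into regions (Python 3.11.15, pandas 2.3.3, NumPy 2.4.6), with the merging tested on simulated data. A gene or region was called for a genotype when all 3 of its libraries and no library of the other had a summit. Fisher's exact test cannot go below p = 0.10 for 3 against 3, so no p-values are given. Scores were used only to rank summits within a list, and the precision of a score is not known. Promoter windows and mature microRNAs came from RefSeq tables of GRCm38.p6, which matched 22 of the 39 genes.

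Members were named, and so were regions by this rule: those specific to a genotype, those at gene ends and, per cluster, up to 3 shared regions inside it with the highest lowest percentile. Some items that these rules select are not reported here. Hoxa regions 7, 10 and 13 and Hoxb region 1 were added after their values were seen. The members, the 11 other gene lists and the tests were chosen with earlier results of these data known. Alternatives were lists of equal length (44492 summits), only scores of 5 or more, each library left out, gene ends within 0.5 and 2 kb, extensions of 100 and 500 bp, flanks of 25 and 100 kb, and summits closer than 501 bp counted once. Sequences of regions away from start sites were not used here.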

Additional observations from a re-analysis of the deposited data

How the results depend on the processing

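The 9 results were recomputed under the alternatives, and 99 of 102 values stayed within 1.5 times the reported count or within the spread between libraries. Within 2 kb of a gene end, 17 Hox genes were marked in all 6 libraries and 13 in none. Leaving out 1 library at a time gave 0 to 1 regions specific to AD/-. The 1 appeared without AD/- library 3 and was Hoxb region 1, and fewer libraries are then required for the call. The 9 genes marked in all libraries were kept with a score of at least 5 and with lists of equal length. Leaving out 1 library could not lose any of them, and Hoxa11 joined them without AD/- library 3. With lists of equal length, the number of Hox genes marked in none was 27 and the difference between genotype means (AD/- minus null) was −0.667, against −2 as reported. Leaving out 1 library gave differences from −3.17 (without AD/- library 2) to −0.667 (without AD/- library 3), and gene ends within 0.5 kb gave −0.333. No paired analysis was possible because the labels give no replicate numbers. Read depth is unknown, so its part in absent summits was not tested.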
